A study of Mus musculus with 4 samples.

Results

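Oxct1 encodes succinyl-CoA:3-ketoacid CoA transferase, the mitochondrial enzyme that activates ketone bodies for oxidation. In RNA pulled down from mouse hearts with an ac4C antibody (ac4C is the RNA base N4-acetylcytidine), Oxct1 was covered by 1 of the 558 distinct regions of the deposited count table. That region was taken as the one that overlaps Oxct1 (gene identifier ENSMUSG00000022186). The series concerns NAT10, the acetyltransferase that makes ac4C, in diabetic cardiomyopathy with exercise. The libraries came from whole hearts of C57BL/6 mice, 2 labelled control and 2 labelled NAT10 knockout. Every library carried the treatment label HFD+STZ+Exercise, so diet, STZ and exercise were shared by both groups and not compared. The labels name no promoter, Cre line, age or pooling for the knockout. Oxct1 was chosen by its region counts in control and knockout libraries, so their difference is described without a test.

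Ketone bodies are made in the liver and burned in other organs, with the heart among their most avid users. In the mitochondrial matrix, 3-hydroxybutyrate dehydrogenase (Bdh1) turns 3-hydroxybutyrate into acetoacetate, the Oxct1 enzyme moves coenzyme A from succinyl-CoA to acetoacetate, and the thiolase Acat1 splits the product into acetyl-CoA for the citrate cycle. Hepatocytes make ketone bodies but lack the transferase, so they cannot consume them. Antibody-based maps have reported ac4C in messenger RNA near repeats of the unit CNN, a cytidine followed by any 2 bases, and how widespread the mark is in messenger RNA is debated.

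On the mouse assembly GRCm38, GENCODE M21 places Oxct1 on the plus strand of chromosome 15 from 4026383 to 4155344. The main transcript has 17 exons, 3527 bases and an open reading frame for 520 residues. The stretch below holds a run of 5 CNN units in exon 5, the greatest run length in its coding sequence. Another run of 5 units starts at base 987 of the coding sequence and is not printed. The stretch is shown beside the same stretch of the testis paralogs Oxct2a and Oxct2b. It lies at chr15:4053738-4053800 for Oxct1, at chr4:123323087-123323149 on the minus strand for Oxct2a and at chr4:123116726-123116788 on the plus strand for Oxct2b. Capitals mark the run in the Oxct1 line and the bases that differ from Oxct1 in the paralog lines.
Oxct1: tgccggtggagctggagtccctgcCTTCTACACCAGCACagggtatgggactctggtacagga
Oxct2a: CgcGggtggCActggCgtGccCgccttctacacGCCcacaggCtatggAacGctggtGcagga
Oxct2b: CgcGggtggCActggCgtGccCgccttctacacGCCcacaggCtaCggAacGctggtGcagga

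Across these 63 bases, 14 differed in Oxct2a and 15 in Oxct2b. Over the whole coding sequence, Oxct1 was identical to Oxct2a at 68.4% and to Oxct2b at 68.7% of 1548 aligned bases, with a longest exact match of 18 bases to either. Neither paralog is among the overlapped genes of the table. The motif CNNCNNCNNCNN, read on the sense strand in any frame with overlapping starts, occurred 8 times in the Oxct1 coding sequence, or 5.12 times per kilobase. The median was 7.47 per kilobase over 20930 mouse coding sequences and 8.91 over the 286 measured genes with one, and 27.3% of the latter stood at or below Oxct1. The motif is common: 95.8% of coding sequences hold it, and 85.5% of the 2373 coding sequences within 10% of the Oxct1 length have a run at least as long. These are counts of letters, and the position of the captured region within Oxct1 was not used here.

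The table lists the Oxct1 region with another gene, the antisense gene Gm15632, placed at chromosome 15 from 4098708 to 4101514 on the minus strand. Its build is not given in the file, and the start differs by 29482 bases from that of Gm15632 on GRCm38 (4069226), while the length of 2807 bases is the same. On GRCm38, Gm15632 lies inside the intron between exons 7 and 8 of Oxct1, which is 31171 bases long, and it overlaps 0 Oxct1 exons. A second antisense gene, BC037032, reaches 1023 bases past the Oxct1 start and covers exon 1, and it is not listed in the table. Of 141767 annotated transcripts, those of BC037032 alone shared any 50-base word with Oxct1 on either strand, 419 of 3742 words. In 250 of the 558 regions the listed gene was not an overlapped one, so such a listing was common. No source used here states how strand was handled, so where Oxct1 and an antisense gene overlap, their reads cannot be told apart. Whether the captured region lies in such a stretch was not examined.

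**Figure D1:**
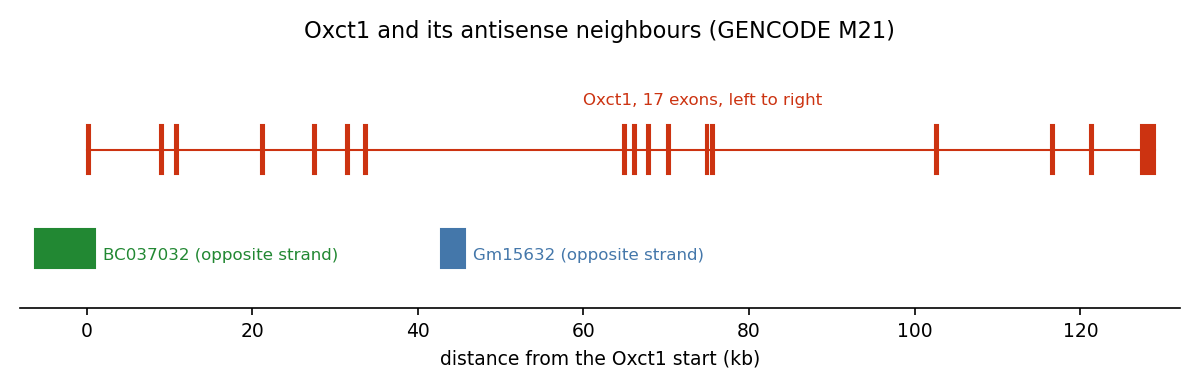
Gene model of Oxct1 by distance from its start in kilobases, with exons as vertical bars (those under 0.35 kb are drawn at 0.35 kb) and the 2 antisense genes as boxes below. Gm15632 sits in the intron between exons 7 and 8, and BC037032 covers exon 1.

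Counts in the listed regions summed to 674687 and 686323 in control replicates 1 and 2 and to 920818 and 693922 in knockout replicates 1 and 2. These sums are not the depth of whole libraries. An 18S and a mitochondrial ribosomal RNA region together made up 40.7% to 43.8% of them. Nat10 was not analysed here, which leaves the knockout label unchecked. No library made without the antibody was used, and RNA abundance and ac4C cannot be told apart in these counts. Of 10 heart muscle markers 7 were in the table, among them Myh6, Actc1 and Ttn, with summed normalised counts of 69060 to 73630 per library. Markers of endothelium, fibroblasts, liver, kidney and testis had no region. The table lists selected regions, so a gene without one is not shown to be absent. Of all regions 22 passed edgeR's quasi-likelihood test at an adjusted p below 0.05, and the count was 13 without control replicate 2 and 37 without knockout replicate 2.

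The Oxct1 region had 190 counts in control replicate 1 and 254 in control replicate 2, against 648 in knockout replicate 1 and 401 in knockout replicate 2. After scaling to the totals with TMM factors (0.918, 1.00, 1.18 and 0.919 in the same order), the normalised counts stood at 307 and 370 in control against 594 and 629 in knockout. Both knockout libraries stood above both control libraries, which held for 25.3% of all regions. The lowest knockout value was 1.61 times the highest control value. The group means were 338 ± 44.5 in control and 611 ± 24.6 in knockout (SD, n = 2), a ratio of 1.81. The fit gave a log2 fold change of 0.85 ± 0.14 (SE), knockout over control, and an SD of 2 libraries is itself poorly known. In whole-heart RNA, a change in the number of cells of a type and a change in RNA per cell cannot be told apart.

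In ascending order the libraries ran from control replicate 1 over control replicate 2 and knockout replicate 1 to knockout replicate 2. The step within control was 1.20-fold and the step within knockout 1.06-fold, against 1.61-fold between the groups. The knockout pair changed places when the factors were left out. As shares of the listed counts, Oxct1 took 0.0282% (95% Wilson interval 0.0244 to 0.0325) and 0.0370% (0.0327 to 0.0418) in control. In knockout it took 0.0704% (0.0652 to 0.0760) in replicate 1 and 0.0578% (0.0524 to 0.0637) in replicate 2. The intervals of control and knockout libraries did not meet, and neither did those of the libraries within a group. They cover counting error only, and as if each count were an independent molecule. Of the counts below 200 in each library, 78.0% to 83.3% were even numbers, so counts are not independent molecules. The intervals are therefore too narrow, and that they do not meet within a group cannot be relied on.

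**Figure D2:**
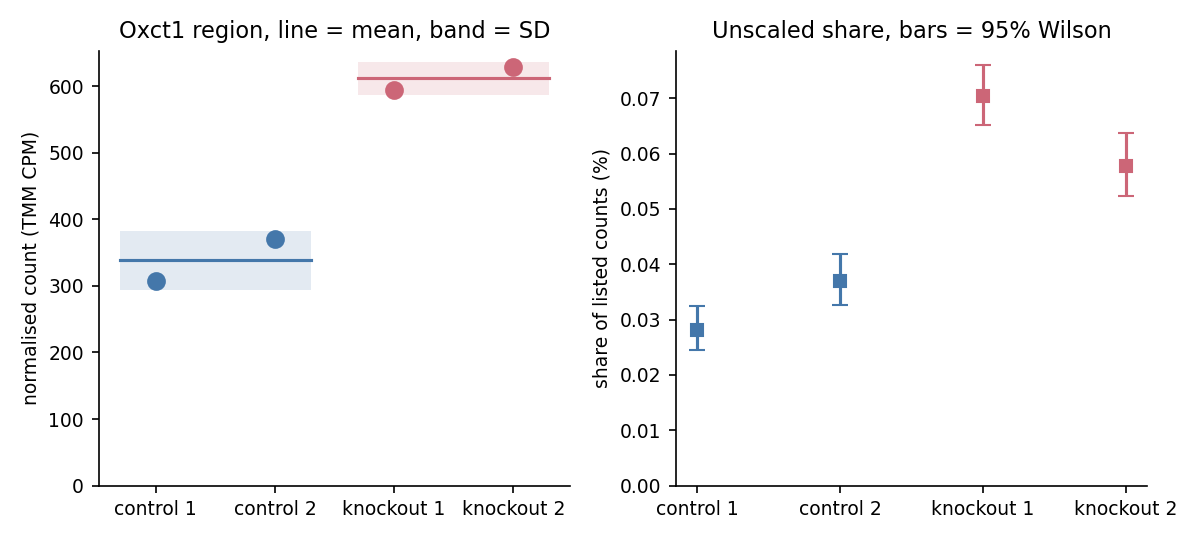
Oxct1 in each library, as normalised count (TMM-scaled CPM) on the left with the group mean as a line and the SD as a band, and as unscaled percent of listed counts on the right with 95% Wilson intervals. The control libraries stand at 307 and 370 and the knockout libraries at 594 and 629.

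A ratio to another region of the same library needs no scaling. The ratio of Oxct1 to the other region was higher in both knockout libraries than in either control for 459 of the 557 other regions (82.4%). This held for 45 of 45 regions over heart muscle marker genes, which include the light chains Myl2 and Myl3 and phospholamban (Pln). It held for 29 of 34 regions of the pathway genes described below (85.3%). The choice of Oxct1 from this contrast fixes the direction of these ratios, and they show only against which RNAs it is seen.

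By normalised count per region, which is not corrected for region length, Oxct1 ranked 139th of 558 at a mean of 475, or 3.56 times the median region. Its rank by raw count was 177 and 156 in the control libraries and 122 and 115 in the knockout libraries. The regions next above it were a region of Hspb7, a small heat shock protein gene, and a region of titin (Ttn), with log2 fold changes of -0.35 ± 0.13 and 0.18 ± 0.13. Those next below were another Ttn region at -0.06 ± 0.13 and Tle5, a transcriptional corepressor gene, at 0.17 ± 0.15 (edgeR adjusted p of the 4 from 0.135 to 0.828).

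By fitted log2 fold change, Oxct1 ranked 21st from the highest. The 20 regions above it all had fewer counts, with mean normalised counts of at most 63.7 and SEs of 0.32 to 1.05. Of these 20 regions 0 passed edgeR's quasi-likelihood test, against 3.94% of all regions. Of the 138 regions with a higher level than Oxct1, the largest fold change was 0.70 ± 0.15, in the region shared by Pln, Cep85l and Gm47644. The nearest neighbours in change were Slc25a12, a mitochondrial aspartate and glutamate carrier gene, at 0.86 ± 0.53 and Trp53inp2, an autophagy gene, at 0.86 ± 0.35 above it. Below it stood Smyd1, a muscle histone methyltransferase gene, at 0.83 ± 0.34, and a region that overlaps no gene and is listed with Mir101c, at 0.82 ± 0.28. Without 1 library, Slc25a12 ranged from 0.27 (without control replicate 1) to 1.96 (without control replicate 2) and Trp53inp2 from 0.54 to 1.20. Smyd1 ranged from 0.74 to 0.90 and the region listed with Mir101c from 0.70 to 0.94, against 0.72 to 0.98 for Oxct1. The SEs of these neighbours were larger than the gaps between them and Oxct1. The 16 other regions on chromosome 15 had a median log2 fold change of -0.07 (range -0.49 to 1.04). Of these 16 regions 0 passed, against 3.94% of all regions.

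**Figure D3:**
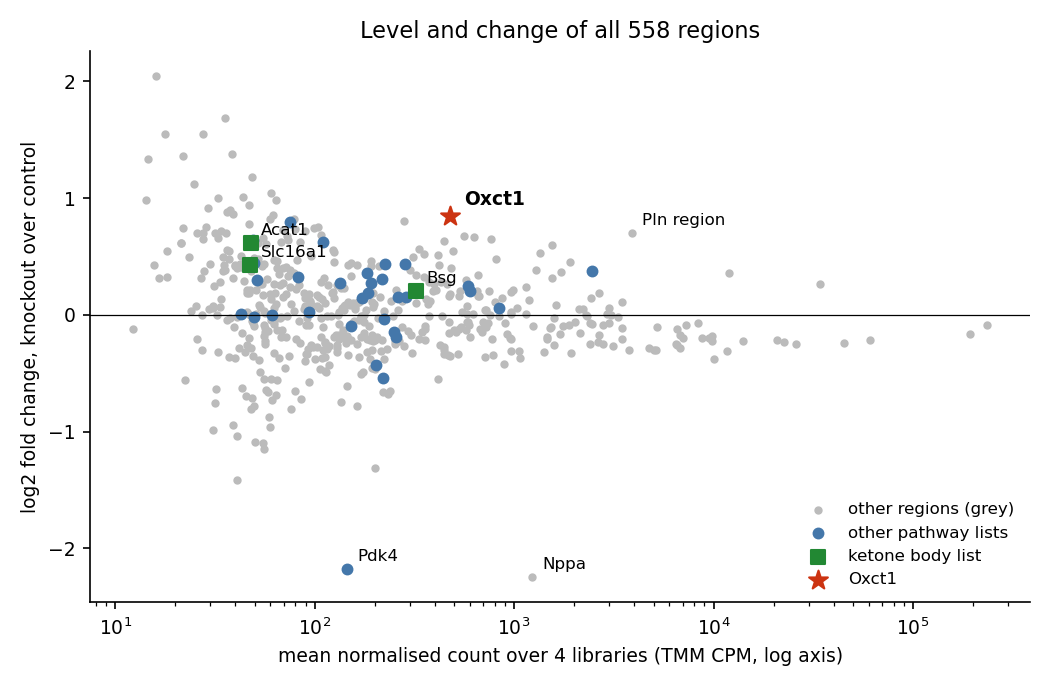
Mean normalised count over the 4 libraries (log axis) against the fitted log2 fold change of knockout over control for all 558 regions, with Oxct1 as a star, other ketone body genes as squares and other pathway genes in blue. Oxct1 lies at 475 and 0.85, and regions with larger upward changes lie at lower levels.

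The profile of Oxct1 over the 4 libraries was compared with each other region by the root mean square difference of centred log2 normalised counts. The closest was the region listed with Mir101c, at 0.03, followed by Fitm1 at 0.08, a region of Naca at 0.09, Idh3a at 0.09 and Chl1 at 0.10. Fitm1 encodes a lipid droplet protein of muscle, Naca a nascent polypeptide chaperone subunit, Idh3a the catalytic subunit of the citrate cycle enzyme isocitrate dehydrogenase, and Chl1 a neural cell adhesion molecule. Chl1 had 197 and 213 normalised counts in control and 374 and 340 in knockout. Idh3a had 45.2 and 64.1 in control and 96.2 and 94.1 in knockout. Both genes showed the step between the groups that Oxct1 showed. With 4 libraries, likeness of this kind rests mainly on that step, so it adds nothing independent of the choice of Oxct1.

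Of the other 14 genes on the ketone body list, 3 were in the table: the mitochondrial thiolase Acat1, the monocarboxylate transporter Slc16a1, which carries ketone bodies and lactate across the membrane, and its chaperone Bsg. Acat1 had 25.8 and 49.5 normalised counts in control and 62.3 and 53.3 in knockout. Slc16a1 had 38.8 and 43.7 in control and 73.3 and 34.5 in knockout. Bsg had 305 and 294 in control and 361 and 326 in knockout. The knockout values of Acat1 and Bsg lay above both controls, which held for 25.3% of all regions, while those of Slc16a1 lay on either side.

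The log2 fold changes were 0.61 ± 0.43 for Acat1 (edgeR adjusted p = 0.476), 0.43 ± 0.43 for Slc16a1 (adjusted p = 0.624) and 0.20 ± 0.15 for Bsg (adjusted p = 0.501). By edgeR 0 of the 3 passed, also 0 at an unadjusted p below 0.05 and 0 by DESeq2, where 3.94% of all regions passed edgeR (2.33% higher and 1.61% lower). Their median was 0.43, against 0.01 over all regions. The Acat1 value was 0.23 without control replicate 1 and 1.16 without control replicate 2, and the Slc16a1 value was -0.26 without knockout replicate 1. Acat1 and Slc16a1 had 16 to 80 counts per library, and a change of the size seen for Oxct1 lies within about 1 SE of both values. The Bsg region is listed with Hcn2 and the Slc16a1 region with Gm43585. Other named regions are also listed with another gene, among them those of Ogdh, Sdha, Idh2, Got2, Pkm, Slc25a12, Smyd1, Fitm1 and Chl1. The other 11 genes of the list, among them Bdh1, had no region and were not analysed here.

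The transferase draws on succinyl-CoA, an intermediate of the citrate cycle, and the acetyl-CoA made from its product enters that cycle through citrate synthase (Cs). Of 22 genes on the citrate cycle list 12 were measured, each by 1 region. By edgeR 0 of the 12 passed after adjustment, and 3 had an unadjusted p below 0.05, against 19.0% of all regions, while DESeq2 passed 0. Values were above 0 in 11 of 12, with a median of 0.33 on the log2 scale, and both knockout libraries lay above both controls in 9 of 12, against 25.3% of all regions.

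Among the enzymes that handle succinyl-CoA, Ogdh, a subunit of the oxoglutarate dehydrogenase complex that makes it, had 733 and 903 normalised counts in control and 851 and 853 in knockout. The knockout values of Ogdh fell between the controls, and its log2 fold change was 0.06 ± 0.13 (edgeR adjusted p = 0.825). Dld, another subunit of that complex, stood at 0.45 ± 0.41 (adjusted p = 0.594). Sucla2, a subunit of the ligase that uses succinyl-CoA for ATP and so shares a substrate with the Oxct1 enzyme, had 48.5 and 29.1 in control and 66.0 and 53.3 in knockout. It stood at 0.64 ± 0.42 (edgeR adjusted p = 0.432), so a change of the Oxct1 size and no change both lie within 2 SE.

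Cs had 98.5 and 72.8 normalised counts in control and 119 and 147 in knockout, in a region shared with Gm56959, and stood at 0.63 ± 0.24 (edgeR adjusted p = 0.136). Idh3a, the nearest in profile of this list, stood at 0.79 ± 0.29 (adjusted p = 0.121). The aspartate aminotransferases Got2 and Got1 stood at 0.44 ± 0.18 and 0.36 ± 0.19, with adjusted p of 0.166 and 0.316. The isocitrate dehydrogenase Idh2 and the succinate dehydrogenase subunit Sdha had smaller values of 0.16 ± 0.15 and 0.16 ± 0.16 (edgeR adjusted p = 0.612 and 0.624).

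Fuels that compete with ketone bodies were read from lists on fatty acids, glucose and branched-chain amino acids. Of the 29 fatty acid genes 5 were measured in 8 regions, and by edgeR 0 regions passed, 2 had an unadjusted p below 0.05 (19.0% of all regions had one), and DESeq2 passed 0. The largest region of Lpl, the lipase that releases fatty acids from circulating lipid, had 2179 and 2096 normalised counts in control and 2805 and 2739 in knockout (0.38 ± 0.13, edgeR adjusted p = 0.119). The other Lpl regions stood at 0.21 ± 0.13 and 0.24 ± 0.13. Of the 2 regions of the fatty acid transporter Cd36, one stood at -0.19 ± 0.17 (edgeR adjusted p = 0.575), with knockout values on either side of the lower control. The other had 262 and 207 normalised counts in control and 181 and 163 in knockout (-0.43 ± 0.18, edgeR adjusted p = 0.172). Values were above 0 in 4 of the 8 fatty acid regions, and the knockout libraries lay above both controls in 4 and below both in 2, against 25.3% and 22.2% of all regions. Acadm, an acyl-CoA dehydrogenase of fatty acid oxidation, stood at 0.27 ± 0.19 (adjusted p = 0.479).

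Of the 25 glucose and pyruvate genes 9 were measured in 10 regions, and 1 region passed, lower in knockout, against 3.94% of all regions in either direction and 1.61% lower. The knockout libraries lay above both controls in 3 of the 10 and below both in 3, against 25.3% and 22.2% of all regions. The region that passed was Pdk4, a kinase that shuts down pyruvate dehydrogenase and so spares glucose, with 226 and 248 normalised counts in control and 40.3 and 69.0 in knockout. Its log2 fold change was -2.18 ± 0.24 (edgeR adjusted p = 8.93e-08), opposite in sign to Oxct1. With a block by replicate number the Pdk4 value was -2.16 ± 0.24 and the call was lost (edgeR adjusted p = 0.0900). Pdha1, a subunit of pyruvate dehydrogenase, had values of 0.43 ± 0.16 in a region shared with Map3k15 and 0.19 ± 0.19 in another (edgeR adjusted p = 0.121 and 0.612). The muscle glycogen phosphorylase Pygm stood at -0.54 ± 0.18 (adjusted p = 0.0900, and 0.0210 without control replicate 2) and the pyruvate kinase Pkm at -0.15 ± 0.16 (adjusted p = 0.656).

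Of 18 branched-chain amino acid genes, Ivd alone was measured (0.30 ± 0.39, edgeR adjusted p = 0.707). Of 18 regulators of energy genes, among them Ppara and Ppargc1a, 0 were in the table. Across the 5 lists with a measured gene, 34 regions other than Oxct1 had a median of 0.21, with 25 above 0, against 287 of 558 among all regions.

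**Figure D4:**
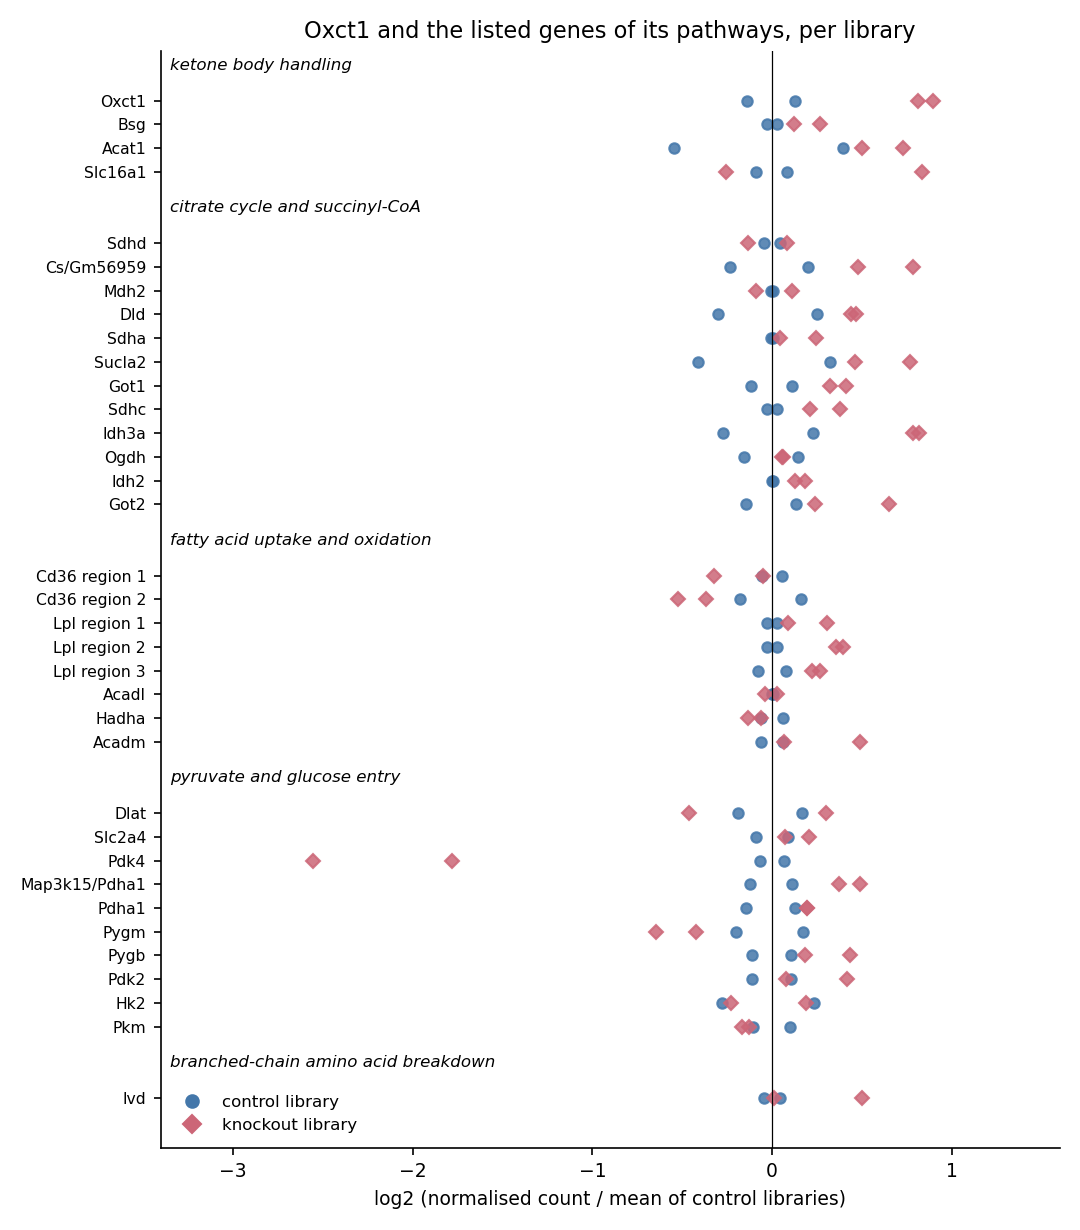
Each library's normalised count as log2 of its ratio to the mean of the control libraries, for Oxct1 and the 34 other regions of its pathway lists, with circles for control and diamonds for knockout libraries. Oxct1 has both diamonds far to the right of its circles, Pdk4 has them far to the left, and Slc16a1 and Ogdh have them on either side of or between their circles.

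Of 5 markers of atrial muscle 2 were in the table, Nppa, which encodes atrial natriuretic peptide, and Stard10, a lipid transfer protein gene. The Nppa region fell, with 2006 and 2046 normalised counts in control and 429 and 423 in knockout (-2.25 ± 0.12, edgeR adjusted p = 1.27e-15). Stard10 stood at -1.41 ± 0.53 and did not pass (edgeR adjusted p = 0.130). Their summed normalised counts were 2074 to 2095 in control and 444 to 455 in knockout, and Nppa made up nearly all of it. These regions also overlap Gm13054 (Nppa) and Gm20476 (Stard10). Myl7, Sln and Myl4 had no region. The sum for the 7 measured heart muscle markers was 69060 to 69760 in control and 70339 to 73630 in knockout. Of their 45 regions 3 passed edgeR's test, all higher in knockout, against 2.33% of all regions. DESeq2 passed 1, and the log2 fold changes ran from -0.26 to 0.70. Ckm, the 1 measured marker of 6 for skeletal muscle, stood at -0.14 ± 0.13 in a region shared with A930016O22Rik. Hba-a2, the 1 measured marker of 5 for red blood cells, stood at -0.03 ± 0.53. The part of the Nppa difference in the Oxct1 values was not tested. Of 5 smooth muscle and pericyte markers 2 were in the table, and by edgeR 0 passed. Abcc9, a potassium channel subunit gene, had 6.46 and 26.2 normalised counts in control and 47.7 and 61.1 in knockout (1.68 ± 0.59, edgeR adjusted p = 0.109). Rgs5, a regulator of G protein signalling, stood at 0.13 ± 0.25, and the summed level of both ran from 84.0 to 154 in control and from 151 to 187 in knockout. Cd74 was the 1 measured marker of 5 for macrophages and antigen presentation, with 48.5 and 84.4 in control and 103 in both knockouts. Lpl (above) was the 1 measured marker of 5 for adipose tissue. Cd74 and the Lpl regions lay above both controls in knockout without passing the test. Of all regions, 25.3% lay above both controls. The part of these markers in the Oxct1 values was not tested either.

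The authors' deposited table gives its own log2 fold change, positive where control is higher. With the sign turned, the authors' deposited table puts Oxct1 at 2.87, or 7.30-fold higher in knockout, 26th from the highest of 558. The largest ratio of a knockout to a control count of Oxct1 was 3.41 before scaling and 2.50 after scaling to totals, so the authors' deposited table states a fold that no pair of these counts gives. The same held for 321 regions (57.5%), with 0.5 added to each count. The authors' deposited table has 76.9% of regions higher in knockout and a median log2 fold change of 0.99. No source used here states how that fold change was computed. Whether it used these libraries alone is not known, and it was not treated as an independent check.

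The Oxct1 log2 fold change lay between 0.72 and 1.04 in the 16 other ways of processing, above 0 in each. Its choice from this contrast, with both knockout libraries above both controls, largely fixed that sign in advance. These values show only how far its size moved. It was 0.72 without control replicate 1 and 0.98 without control replicate 2, the pair that differed more, and 0.89 and 0.81 without knockout replicates 1 and 2. Scaling to the 18S ribosomal RNA region gave 1.04 ± 0.33, and that scaling also moved the median of all regions to 0.22. It takes the 18S region as equal between the groups, which was not tested. Relative to the median of all regions, Oxct1 stood at 0.84 as reported, 0.82 with 18S scaling and 0.82 with totals alone. Its rank from the highest change ran from 3rd, where regions with a mean count below 50 were left out, to 41st, without control replicate 1.

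**Figure D5:**
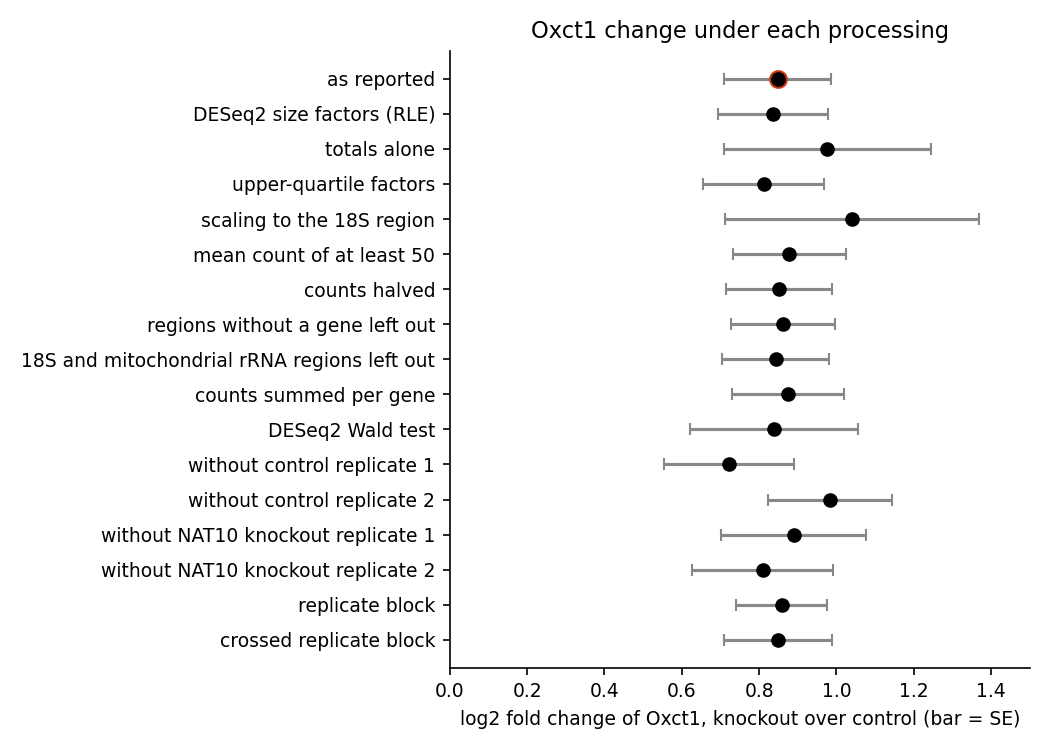
Fitted log2 fold change of Oxct1, knockout over control, with its SE as a bar, as reported (red) and under 16 other ways of processing. All values lie between 0.72 and 1.04.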

How the data were processed

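Per the file headers, the deposited table gives raw counts of 4 libraries for each region, and the authors' log2 fold change, p-value and q-value, of which the last 2 were not used. FastQC, Salmon and mm10 are listed in the submitters' processing notes, with no version or role, and the region caller and counter are not stated. Dropping 94 repeats under other gene names left 558 regions of 652 lines.

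All regions were tested together by edgeR 4.0.16 (R 4.3.3) with TMM factors, filterByExpr (0 regions removed) and a robust quasi-likelihood fit, and p was adjusted by Benjamini-Hochberg with a threshold of 0.05. Normalised counts are TMM-scaled CPM over listed counts. The SE is the absolute log2 fold change over the root of F. Profiles used log2 CPM with a prior count of 2. The fit was tested on simulated data whose counts were independent, unlike the counts here. Alternatives were other factors, filters and units, DESeq2 1.42.0, leaving out each library, and a replicate block. Intervals cover counting error only and treat counts as independent, which makes them too narrow. Nothing in the labels ties libraries to separate animals, so p-values reflect the spread between these samples, which may be technical.

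Oxct1 and the lists were chosen with earlier results of these data known. Named were all measured ketone body genes; members of other lists past the test and up to 4 others of highest level; neighbours of Oxct1 in level and change; and the 5 nearest profiles. Cs, Sucla2, Dld, Got1, Acadm and the second Cd36 region were named after their values were seen. The same holds for the Pln, Nppa, Stard10, Abcc9, Rgs5, Cd74, Ckm and Hba-a2 regions. Gene models and sequences are from GENCODE M21 (GRCm38), handled with Biopython 1.88. A few list genes are not reported here and were left out of the lists' counts.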

Additional observations from a re-analysis of the deposited data

How the results depend on the processing

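The Oxct1 value moved by less than the SD between replicates (0.14 on the log2 scale) in 15 of 16 alternatives, not counting the fit with no filter on low counts, which repeats the reported fit because the filter removed 0 regions. The exception was scaling to the 18S region, at 1.04. Without 1 library it ranged from 0.72 to 0.98. The 22 regions called over the table became 8 with totals alone, 6 with 18S scaling, 5 with the DESeq2 Wald test and 13 to 37 without 1 library. With totals alone the median of all regions moved to 0.15. Of the pathway regions other than Oxct1, 1 was called, against 2 where regions needed a mean count of 50, 2 where regions without a gene were left out and 1 to 2 without 1 library; the additional ones were an Lpl region or, without control replicate 2, Pygm.

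Same-numbered libraries share only a number in the labels. Their deviations correlated at -0.159 across 558 regions. A replicate block left 1 region called, 0 pathway regions and an Oxct1 value of 0.86. A crossed replicate block, chosen after seeing the data, called 42 regions and 2 pathway regions.

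For the 29 named regions, 427 values neither crossed the threshold nor changed sign, 6 lost the call, 6 gained one and 7 changed sign. The sign changes were 0.078 (totals alone) and 0.14 (18S) for a Ttn region, 0.00073 for Cd36 and 0.058 for Pkm (both 18S), and, without 1 library, ranges of -0.084 to 0.21 for Ogdh, -0.26 to 0.83 for Slc16a1 and -0.082 to 0.40 for Tle5. Low counts limit Acat1, Slc16a1 and Sucla2.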
